A study of Mus musculus with 7 samples.

Results

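The genes described here are 33 components of the unfolded protein response of the endoplasmic reticulum (ER), compared between the Met1 and DB7 mouse mammary tumour lines. They are the 3 arms of the response, named after XBP1, ATF6 and PERK-ATF4, and the chaperones and folding enzymes those arms control. Members were all probe sets whose single gene symbol in the array's annotation was on the list. These were 70 of the 22626 probe sets that are not array controls, and all 33 genes were represented among the 12393 genes with a probe set of their own. Both lines were sampled as transplanted tumours, with 3 arrays for Met1 and 4 for DB7 (n = 3 and n = 4 throughout). No treatment separates the groups.

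As background, both lines come from mammary tumours of mice in which the mouse mammary tumour virus promoter drives the polyomavirus middle T antigen. The DB7 transgene encodes a middle T form mutated at tyrosines that couple it to signalling proteins. Each group is thus 1 tumour line passaged in hosts, and a difference between groups is a difference between these lines. The series' design text speaks of tumours of F1 animals from AKR/J and DBA/2J outcrosses with PyMT, which the sample labels do not mention, and the sample labels were used. No label gives the host strain, its age or whether each array is a separate animal, so the replicate spread may be partly technical. In whole tumours, fewer cells of a type and less RNA per cell cannot be told apart. Of 11 luminal epithelial markers, 8 lay above the array median on every array of both lines, Krt8, Krt18 and Epcam among them, although these 3 were lower in Met1 (-0.32, -1.01 and -0.48). Cldn7 and Muc1 lay above it on all 3 Met1 arrays and 0 of 4 DB7 arrays, and Krt19 on 1 array of each line.

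Proteins bound for secretion or the cell surface fold in the ER, and the unfolded protein response matches its folding capacity to that load. IRE1 splices the Xbp1 mRNA into the form that encodes an active factor, ATF6 is released by cleavage, and PERK phosphorylates eIF2α, which slows translation while favouring that of ATF4. The first 2 arms raise chaperones, translocation and ER-associated degradation (ERAD), and the ATF4 arm raises amino acid supply, CHOP and feedback on eIF2α. In the mammary gland the response is known from the secretory epithelium of lactation. Splicing, cleavage and phosphorylation are not measured by mRNA arrays, and the assignment of members to arms is a textbook one, since many members answer to more than 1 arm.

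The members higher in Met1 were mostly chaperones and folding enzymes, with Xbp1 and Herpud1 beside them. Those lower in Met1 were Eif2ak3 (PERK), Ddit3 and Atf3 of the PERK-ATF4 arm and the co-chaperone Dnajc3. Of the 57 member probe sets that lay above the array median on at least 3 arrays and were tested, 15 were higher and 7 lower in Met1 at an adjusted p under 0.05 (limma). This is 38.6%, against 31.0% of all tested probe sets. With each gene represented by its brightest tested probe set, 32 members were tested. Of these, 9 (28.1%) were higher in Met1, where 13.0% of all tested genes were. Another 4 (12.5%) were lower, where 17.9% of all tested genes were. The other 19 did not pass, which does not show that they are equal in the 2 lines. Without probe sets whose names end in _s_at, _x_at or _a_at (probes shared between transcripts or genes), 27 members were tested and 5 were higher. Without both DB7 1 and DB7 4, 9 members were lower. In that fit 3450 of 11324 tested probe sets were called in either direction. The median difference, Met1 minus DB7, was 0.11 on the log2 scale for members and -0.04 for all 7482 tested genes.

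The signs of the differences were counted by arm, and the arms were not tested against each other. Over all tested genes, 42.6% had a positive and 57.4% a negative difference. In the ATF6 arm 9 of 10 tested members had a positive difference, with 4 of 10 higher and 0 lower. In the PERK-ATF4 arm 7 of 8 had a negative difference, with 0 higher and 3 lower (37.5%). The XBP1 arm was divided, with 3 higher (27.3%), 1 lower (9.09%) and 7 that did not pass. The median differences were 0.24 for the ATF6 arm, -0.31 for the PERK-ATF4 arm and 0.05 for the XBP1 arm. The lines' values did not overlap in 16 of 32 members, against 39.2% of all tested genes.

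**Figure D1:**
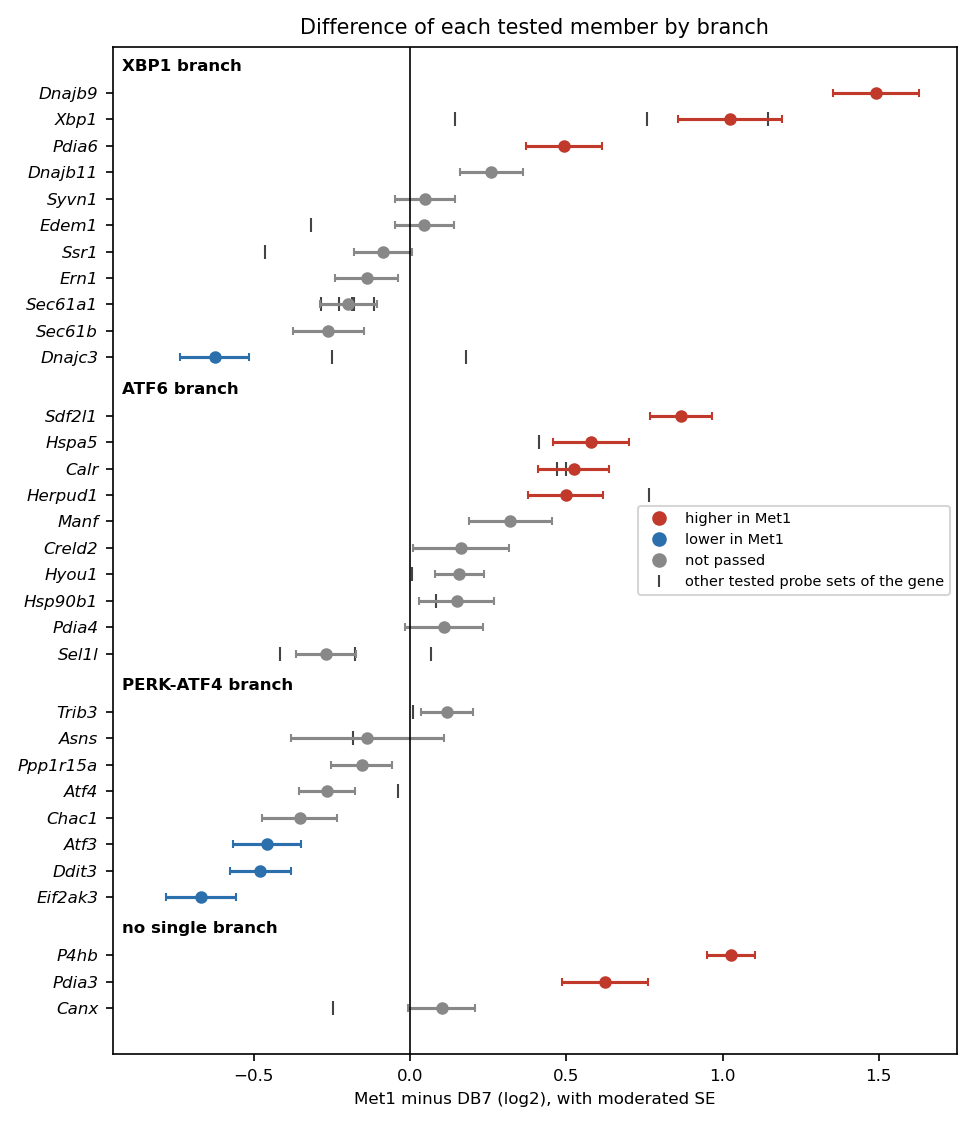
Difference between lines for each tested member, on the horizontal axis as Met1 minus DB7 (log2), grouped by arm. Dots are the brightest tested probe set with its moderated standard error, coloured by call, and ticks are other tested probe sets of the same gene. ATF6 members lie right of 0 except Sel1l, and PERK-ATF4 members lie left of it except Trib3.

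The control sequences these arms act on are shown first, so that each member's values can be read beside its promoter. The ER stress element (ERSE), bound by ATF6 together with NF-Y, is CCAAT, then 9 bases of any kind, then CCACG. A shorter form, ERSE-II, is ATTGG, 1 base, then CCACG. Both were searched on both strands in RefSeq promoters of assembly GRCm38.p6, in windows of 300 bases around the start site. A promoter was matched for 29 of the 33 members, and Atf6, Hyou1, Manf and Sec61a1 were not matched. An ERSE was found in 8 of 29 members (27.6%) and in 37 of 27025 genes overall (0.137%). ERSE-II was found in 2 members (6.90%) and in 0.0444% of all genes. The list was compiled from known stress targets, so this share describes the list and not these tumours. The matches are given below on the strand that reads CCAAT or ATTGG first, with the fixed bases in capitals and the spacer in lower case; Hsp90b1 has 2.
Hspa5: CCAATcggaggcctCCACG
Calr: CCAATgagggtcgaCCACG
Pdia6: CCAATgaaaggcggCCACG
Dnajc3: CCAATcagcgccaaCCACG
Hsp90b1: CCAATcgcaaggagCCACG
Hsp90b1: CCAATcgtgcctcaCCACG
Creld2: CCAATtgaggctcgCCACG
Syvn1: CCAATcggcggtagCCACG
Canx: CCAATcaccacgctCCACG
Herpud1 (ERSE-II): ATTGGgCCACG
Dnajb11 (ERSE-II): ATTGGcCCACG

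Of the 8 members with an ERSE, Hspa5, Calr and Pdia6 were higher in Met1 and Dnajc3 was lower, on 1 of its 3 tested probe sets. Over all tested genes, 13.0% were higher and 17.9% lower. Creld2 (0.16), Hsp90b1 (0.15), Canx (0.10) and Syvn1 (0.05) had positive differences that did not pass. By the brightest probe sets, Dnajc3 was thus the single negative one. Other tested sets gave -0.24 for Canx and 0.18 for Dnajc3, and neither passed. By arm, the ERSE was in 4 of 8 ATF6 members with a promoter, 3 of 10 XBP1 members and 0 of 8 PERK-ATF4 members. Its parts alone were common: CCACG was in 22 of 29 members against 35.5% of all genes, and CCAAT in 22 of 29 against 41.1%.

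The amino acid response core TGATGNAA, read by ATF4 with C/EBP partners, was found in 5 members (17.2%) and in 4.51% of all genes. Those were Asns, Atf3, Chac1 and Trib3 of the PERK-ATF4 arm and Herpud1 of the ATF6 arm. The UPRE core TGACGTGG or TGACGTGA, a site of XBP1 and ATF6, was found only in Hspa5 among the members (3.45%, against 1.22% of all genes). The ATF/CRE core TGACGTCA was found only in Ppp1r15a among the members (against 2.03% of all genes). The 4 upstream regions printed next, up to the base before the start site, show these elements in place: an ERSE member that was higher, one that was lower, and a higher and a lower member with the amino acid response core. Capitals mark the ERSE, ERSE-II, UPRE and amino acid response matches; TTGCATCA is the amino acid response core read on the other strand.
Hspa5 (chr2:34771840-34772089, plus strand): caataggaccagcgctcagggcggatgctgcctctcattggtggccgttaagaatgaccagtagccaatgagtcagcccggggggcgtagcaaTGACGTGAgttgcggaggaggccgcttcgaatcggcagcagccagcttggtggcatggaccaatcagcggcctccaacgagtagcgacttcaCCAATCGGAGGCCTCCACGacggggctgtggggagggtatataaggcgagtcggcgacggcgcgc
Dnajc3 (chr14:118937682-118937931, plus strand): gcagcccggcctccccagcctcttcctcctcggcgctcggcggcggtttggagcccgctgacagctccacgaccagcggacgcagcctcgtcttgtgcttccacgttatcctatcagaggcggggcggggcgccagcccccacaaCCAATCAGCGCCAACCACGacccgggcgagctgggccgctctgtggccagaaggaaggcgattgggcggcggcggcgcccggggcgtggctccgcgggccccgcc
Herpud1 (chr8:94386179-94386428, plus strand): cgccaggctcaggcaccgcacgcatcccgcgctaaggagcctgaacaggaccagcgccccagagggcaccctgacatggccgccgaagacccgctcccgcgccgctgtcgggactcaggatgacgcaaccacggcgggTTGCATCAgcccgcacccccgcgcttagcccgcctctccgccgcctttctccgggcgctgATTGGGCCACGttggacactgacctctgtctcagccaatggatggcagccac
Atf3 (chr1:191183334-191183583, minus strand): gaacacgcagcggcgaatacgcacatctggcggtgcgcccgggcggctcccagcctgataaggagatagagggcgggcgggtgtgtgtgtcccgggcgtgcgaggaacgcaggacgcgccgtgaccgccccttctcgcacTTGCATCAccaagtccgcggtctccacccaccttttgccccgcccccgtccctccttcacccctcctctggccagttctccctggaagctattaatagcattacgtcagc

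**Figure D2:**
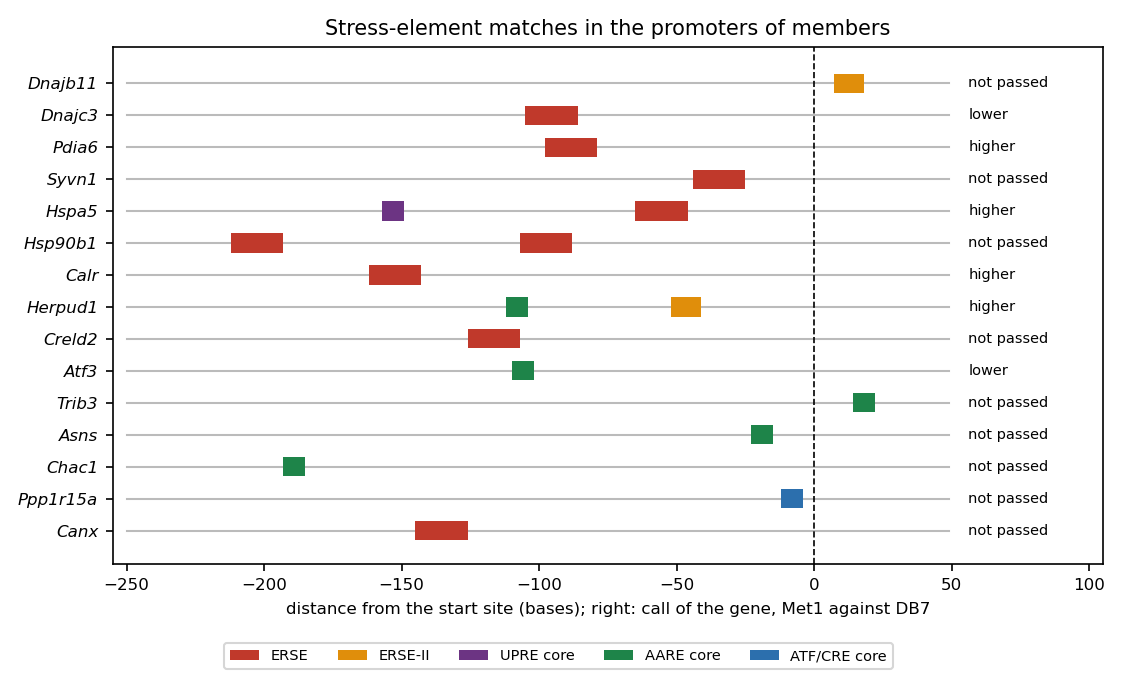
Matches of 5 stress elements in the promoters of the 15 members that hold one, by distance from the start site in bases; grey lines are the searched windows. The call of each gene is printed at the right, and the ERSE appears beside higher, lower and not passed members alike.

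The ATF6 arm holds the main luminal chaperones. Hspa5 (BiP), the Hsp70 chaperone of the ER lumen that also restrains the 3 sensors, read 12.15, 11.94 and 12.11 in Met1 and 11.19, 11.72, 11.50 and 11.53 in DB7 (log2 expression). All Met1 arrays lay above all DB7 arrays, and DB7 1 was the lowest. The difference was 0.58 ± 0.12 (SE), 1.49-fold higher in Met1 (adjusted p = 0.00683). Its other probe set was also higher, by 0.41. The ERSE of the Hspa5 promoter lies at positions -65 to -47 from the start site.

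Calr, the lectin chaperone calreticulin, measured 11.64, 11.68 and 11.50 in Met1 and 11.16, 11.05, 10.83 and 11.30 in DB7. The groups did not overlap, and DB7 3 was lowest. Calr was 1.44-fold higher in Met1 (0.52 ± 0.11, adjusted p = 0.00808), and its 3 probe sets were all higher, by 0.47 to 0.52. Sdf2l1, a partner of ER DnaJ co-chaperones, gave the largest difference of the tested ATF6 members. It stood at 8.83, 8.80 and 8.98 in Met1 against 7.89, 7.94, 8.21 and 7.97 in DB7, with close arrays within each line. This is 1.82-fold higher in Met1 (0.87 ± 0.10, adjusted p = 0.000296).

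Herpud1, an ER membrane protein that organises the ERAD complex, read 9.02, 9.03 and 8.91 in Met1 and 8.52, 8.61, 8.65 and 8.17 in DB7. DB7 4 was the lowest, and the groups were separate. The difference was 1.41-fold (0.50 ± 0.12, adjusted p = 0.0134) with this probe set and 1.70-fold (0.76, adjusted p = 0.000626) with the other. The call of the brighter set was lost without Met1 1 (adjusted p = 0.0523) or Met1 2 (adjusted p = 0.0586).

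The remaining tested ATF6 members did not pass. Without the suffixed probe sets, 7 members of the arm were tested and 2 were higher. Sel1l, the scaffold of the Hrd1 ERAD ligase, was the single negative one. It read 9.86, 9.76 and 9.64 in Met1 and 9.98, 10.19, 10.02 and 9.90 in DB7, so that the lines did not overlap (-0.27 ± 0.10, adjusted p = 0.0644). Its 4 tested probe sets ranged from -0.41, which passed (adjusted p = 0.00744), to 0.07. Hence the Hrd1 scaffold and Herpud1, which acts in the same ligase complex, had differences of opposite sign.

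Manf, a secreted stress-induced factor, read 9.66, 9.59 and 9.61 in Met1 against 8.98, 9.33, 9.60 and 9.29 in DB7. DB7 3 reached the Met1 range, and the difference of 0.32 ± 0.13 did not pass (adjusted p = 0.101). Hsp90b1 (GRP94), the Hsp90 paralogue of the ER, showed 9.99, 9.95 and 9.89 in Met1 and 9.50, 10.01, 9.76 and 9.89 in DB7 (0.15 ± 0.12). Its promoter has 2 ERSE matches, yet its values overlapped between lines. Pdia4, a disulphide isomerase (0.11), the Hsp70-like exchange factor Hyou1 (0.16) and the stress-induced ER protein Creld2 (0.16) also had small positive differences. Hyou1 did not overlap between lines, whereas Creld2 ranged from 7.83 in DB7 1 to 8.56 in DB7 4. Atf6, the sensor of the arm, was the only member not tested. Its single probe set exceeded the array median on 1 Met1 array, with means of 6.51 and 6.41.

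**Figure D3:**
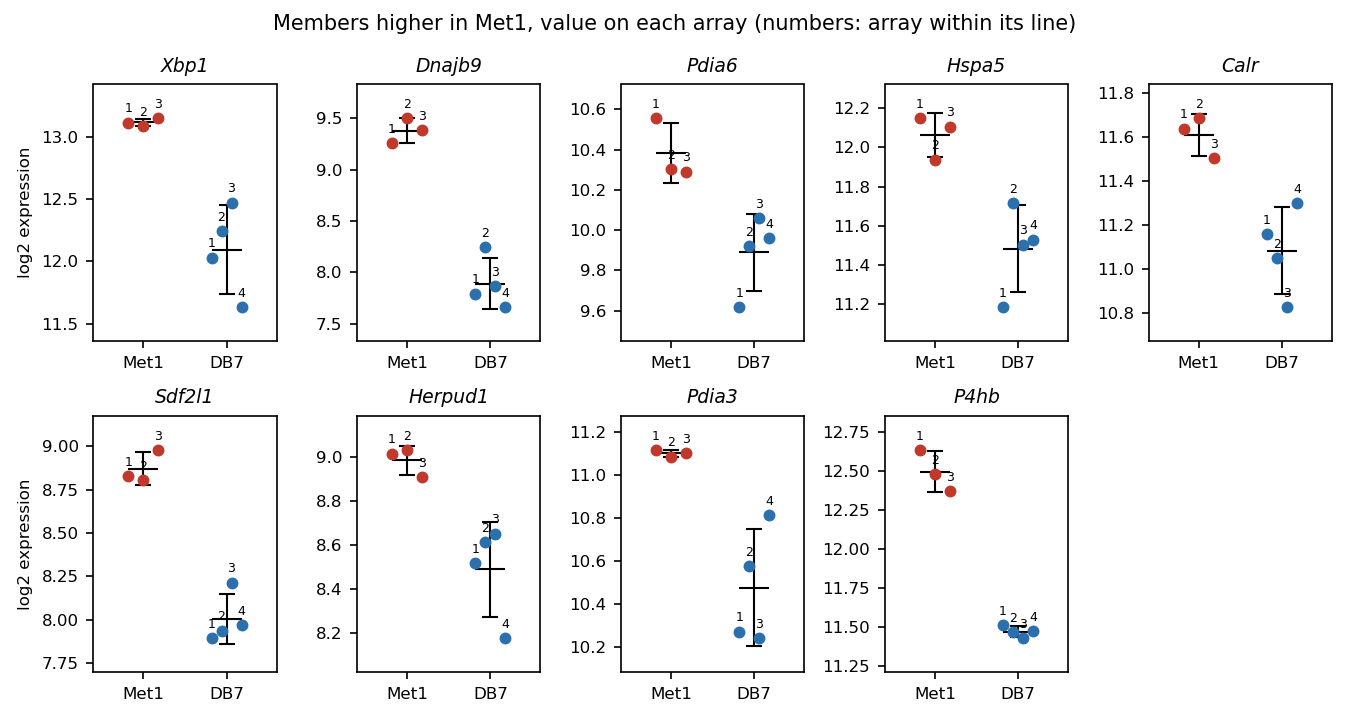
Log2 expression of the 9 members higher in Met1 on each array (vertical axes, scaled per gene and not starting at 0). Points are arrays, numbered within their line, and bars are the mean ± SD; every Met1 point lies above every DB7 point of its gene.

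The XBP1 arm contained both the largest member difference and the only chaperone gene that was lower. Xbp1 itself, whose spliced product drives ER expansion in secretory cells, read 13.12, 13.09 and 13.15 in Met1 and 12.03, 12.24, 12.47 and 11.63 in DB7. The Met1 SD was 0.03, whereas the DB7 SD was 0.36, with DB7 4 lowest. Xbp1 was 2.03-fold higher in Met1 (1.02 ± 0.17, adjusted p = 0.00201). Of its other probe sets, 2 were also higher (1.15 and 0.76), while the 4th differed by 0.14 (adjusted p = 0.324). That one is the only Xbp1 set whose name carries no suffix for shared or similar transcripts, so without suffixed sets the call is lost.

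Dnajb9 (ERdj4), a BiP co-chaperone and classical XBP1 target, read 9.26, 9.50 and 9.39 in Met1 and 7.79, 8.25, 7.86 and 7.66 in DB7. The gap between the lowest Met1 and the highest DB7 array exceeded the range within either line. Dnajb9 was 2.81-fold higher in Met1 (1.49 ± 0.14, adjusted p = 9.58e-05). Pdia6, a disulphide isomerase that also acts on the stress sensors, measured 10.55, 10.30 and 10.29 in Met1 and 9.62, 9.92, 10.06 and 9.96 in DB7. It was 1.41-fold higher (0.49 ± 0.12, adjusted p = 0.0146), with Met1 1 highest and DB7 1 lowest. Without Met1 1 its adjusted p was 0.0669.

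Dnajc3 (p58IPK), a BiP co-chaperone first known as an inhibitor of PERK and PKR, went the other way. Its brightest probe set read 8.02, 7.94 and 8.05 in Met1 and 8.58, 8.83, 8.71 and 8.39 in DB7, with no overlap. It was 1.54-fold lower in Met1 (-0.62 ± 0.11, adjusted p = 0.00297). The probe sets of Dnajc3 disagreed: the other 2 tested sets differed by -0.25 and 0.18 and did not pass, so the call rests on 1 probe set.

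The 7 other XBP1 members did not pass. Dnajb11 (ERdj3), a secreted BiP co-chaperone, read 9.34, 9.12 and 9.24 in Met1 and 8.84, 8.89, 9.02 and 9.14 in DB7 (0.26 ± 0.10, adjusted p = 0.0802). Its groups overlapped by DB7 4 alone, which lay just above Met1 2. The translocon subunits Sec61b (-0.26) and Sec61a1 (-0.20) and the translocon-associated Ssr1 (-0.09) had negative differences. All 6 tested Sec61a1 probe sets were negative, from -0.28 to -0.11, and none passed.

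Ern1, the kinase and nuclease IRE1 that splices Xbp1, read 6.94, 6.82 and 6.71 in Met1 and 6.87, 6.87, 7.18 and 6.92 in DB7 (-0.14 ± 0.10). The lines overlapped, with DB7 3 above the rest. The ERAD genes Edem1, a lectin for misfolded glycoproteins, and Syvn1 (Hrd1), the ubiquitin ligase, each differed by 0.05. A second probe set of Edem1 (-0.31, adjusted p = 0.029) and of Ssr1 (-0.46, adjusted p = 0.0122) was lower in Met1. The brightest Ssr1 set carried an identical value on 4 arrays, so its Met1 SD of 0.00 does not measure replicate error.

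Of the folding enzymes assigned to no single arm, both disulphide isomerases were higher. P4hb (PDI), the abundant oxidoreductase of the ER lumen, read 12.64, 12.48 and 12.37 in Met1 and 11.51, 11.47, 11.43 and 11.47 in DB7. The SD of the DB7 arrays was 0.03, and all of them lay far below Met1. P4hb was 2.04-fold higher in Met1 (1.03 ± 0.08, adjusted p = 3.2e-05), the smallest adjusted p among members.

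Pdia3 (ERp57), the isomerase that works with calnexin and calreticulin, read 11.12, 11.08 and 11.10 in Met1 and 10.27, 10.58, 10.24 and 10.81 in DB7. It was 1.54-fold higher (0.62 ± 0.14, adjusted p = 0.00867), with DB7 4 nearest to Met1. Canx, the membrane lectin calnexin, differed by 0.10 ± 0.11 and overlapped between lines, and its other tested probe set gave -0.24. So of the calnexin cycle members, Calr and Pdia3 were higher and Canx did not pass.

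The PERK-ATF4 arm was on the DB7 side. Eif2ak3, the gene of PERK, read 8.46, 8.53 and 8.47 in Met1 and 8.88, 9.17, 9.28 and 9.31 in DB7. The 3 Met1 arrays were nearly equal (SD 0.04) and below every DB7 array, of which DB7 1 was nearest. Eif2ak3 was 1.59-fold lower in Met1 (-0.67 ± 0.11, adjusted p = 0.00226).

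Ddit3, encoding the death-associated factor CHOP, read 7.98, 7.92 and 7.65 in Met1 and 8.39, 8.34, 8.36 and 8.22 in DB7. The groups were separate, with Met1 3 lowest, and Ddit3 was 1.39-fold lower in Met1 (-0.48 ± 0.10, adjusted p = 0.006). Atf3, a stress factor induced downstream of ATF4, read 7.33, 7.13 and 7.12 in Met1 and 7.75, 7.71, 7.76 and 7.39 in DB7. DB7 4 lay close to Met1 1 and apart from the other DB7 arrays. Atf3 was 1.37-fold lower (-0.46 ± 0.11, adjusted p = 0.0121), a call that was lost without Met1 2 (adjusted p = 0.0565) or Met1 3 (adjusted p = 0.0588).

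Atf4, the arm's central transcription factor, read 9.82, 9.84 and 9.92 in Met1 and 9.999, 10.14, 10.28 and 10.08 in DB7. The lines did not overlap, and the difference of -0.27 ± 0.09 narrowly missed the threshold (adjusted p = 0.0516). Chac1, a glutathione-degrading enzyme induced by ATF4, read 6.42, 6.82 and 6.52 in Met1 and 6.82, 7.13, 6.99 and 6.82 in DB7 (-0.35 ± 0.12, adjusted p = 0.0533). The table carries an identical value for Met1 2, DB7 1 and DB7 4, and such repeats between arrays occur in 42.2% of all probe sets and 24.3% of member probe sets, so the overlap rests on a repeated value. Chac1 lay above the array median on all 4 DB7 arrays and 1 Met1 array.

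Asns, asparagine synthetase and a standard readout of ATF4, was the most variable member. It read 9.37, 9.62 and 9.88 in Met1 and 9.54, 10.19, 10.13 and 9.18 in DB7, so DB7 held both its highest and its lowest arrays (-0.14 ± 0.24, adjusted p = 0.712). Ppp1r15a (GADD34), which directs eIF2α dephosphorylation, differed by -0.15 ± 0.10. Trib3, a pseudokinase induced by CHOP, was the only positive one at 0.12 ± 0.08. Both overlapped between lines.

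The count of lower PERK-ATF4 members rose from 3 to 5 without DB7 1, which added Atf4 and Chac1, and to 6 without both DB7 1 and DB7 4, which also added Asns (-0.54, adjusted p = 0.0306). In Asns these are the 2 lower DB7 arrays. With all arrays, 3626 of 11704 tested probe sets were called in either direction. The same count was 3786 of 11618 without DB7 1 and 3450 of 11324 without both.

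**Figure D4:**
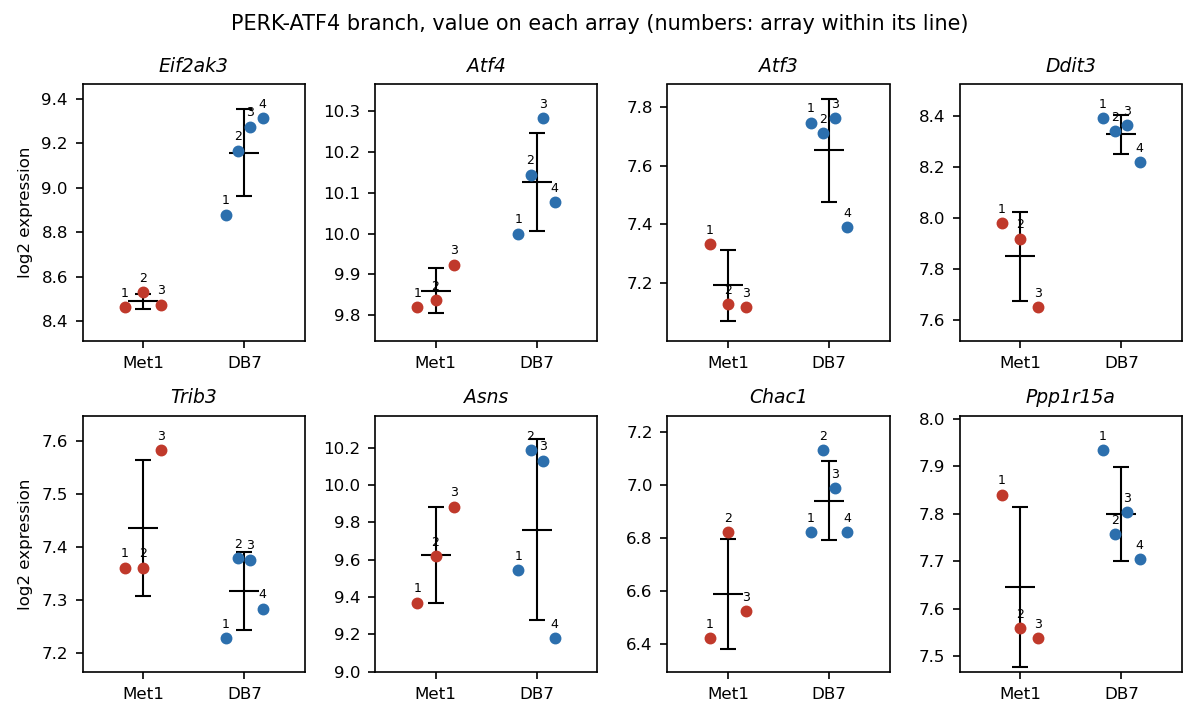
Log2 expression of the 8 PERK-ATF4 members on each array (vertical axes, scaled per gene and not starting at 0), with the mean ± SD of each line. Eif2ak3, Atf4, Atf3 and Ddit3 are separated between Met1 and DB7, whereas Asns spreads widely within DB7.

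Levels were also averaged over members on each array. The mean log2 level of the 10 tested ATF6 members was 9.71 to 9.81 on the Met1 arrays and 9.29 to 9.49 on the DB7 arrays. That of the 8 PERK-ATF4 members was 8.07 to 8.10 in Met1 and 8.25 to 8.50 in DB7. That of the 11 XBP1 members was 9.42 to 9.49 in Met1 and 9.18 to 9.36 in DB7. Over all 32 tested members it was 9.34 to 9.39 in Met1 and 9.11 to 9.29 in DB7. None of these ranges of means overlapped between lines. The median deviation of members from the midpoint of their 2 line means was also taken on each array. In the XBP1 arm it overlapped, at -0.04 to 0.05 in Met1 and -0.07 to 0.07 in DB7. Over all tested members it overlapped too, at 0.016 to 0.12 in Met1 and -0.16 to 0.025 in DB7. In the ATF6 and PERK-ATF4 arms it did not overlap. DB7 1 was the lowest DB7 array for 15 of 32 members, 6 of them in the ATF6 arm, and Met1 1 was the highest Met1 array for 18. Ties were counted for the lower-numbered array, such as Chac1 for DB7 1 and Ssr1 for Met1 1. The median SD of members was 0.09 in Met1 and 0.17 in DB7, beside 0.09 and 0.14 for all tested genes.

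Marker lists of milk secretion and of cell types were set beside the members. The 10 milk secretion markers averaged 8.92 to 9.50 in Met1 and 6.92 to 7.26 in DB7. All 7 that were tested were higher in Met1, against 13.0% of all tested genes. Of these, Wap and Btn1a1 lay above the array median on 3 Met1 and 0 DB7 arrays, so they were tested through Met1 alone. Csn1s1 lay above it on 3 Met1 arrays and 1 DB7 array, so it too passed the filter only through Met1. Among those not tested, Glycam1 differed by -1.21, Csn2 by 0.61 and 0.14, and Csn1s2a by -0.09 to 1.09 across probe sets. Within Met1, the milk marker average was lowest in Met1 1 (8.92), where the member average was highest (9.39). Within DB7, it was highest in DB7 1 (7.26), where the member average was lowest (9.11). That DB7 order leans on the untested Glycam1, which read 8.58 in DB7 1 and 5.41, 5.61 and 7.11 in DB7 2, DB7 3 and DB7 4. The part of milk secretion in the higher chaperone genes was not tested. The B and plasma cell markers averaged 5.86 to 6.01 in Met1 and 5.91 to 6.94 in DB7. Of these, Jchain stood at 8.33 in DB7 1 and 9.33 in DB7 4 and below 6 on the other 5 arrays. Only 2 of the 10 were tested, and neither passed. Xbp1, which plasma cells express strongly, was lowest in DB7 4, and the part of such cells in its values was not tested. The 16 fibroblast and matrix markers averaged 8.71 to 9.29 in Met1 and 7.89 to 9.35 in DB7, the 11 macrophage markers 8.43 to 8.87 and 7.94 to 8.92, and the 9 endothelial markers 6.57 to 6.83 and 6.37 to 6.96. These averages were highest, among the DB7 arrays, in DB7 1, the array with the lowest ATF6 arm; their part was not tested either. Of the 10 tested luminal epithelial markers, 3 (30.0%) were higher and 6 (60.0%) lower in Met1, against 13.0% and 17.9% of all tested genes. Among the higher ones, Cldn7 and Muc1 lay above the array median on 0 DB7 arrays, so they were tested through Met1 alone.

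For some members the surrounding genes differed in the same direction. Among the 20 tested genes nearest to P4hb on chromosome 11, 18 were higher in Met1, with a median difference of 1.06, as large as that of P4hb. Of the 20 nearest to Dnajb9 on chromosome 12, 12 were higher and 1 lower (median 0.53). For Pdia6, also on chromosome 12, 9 were higher and 3 lower (median 0.29). Of the 20 nearest to Eif2ak3 on chromosome 6, 10 were lower and 2 higher (median -0.36). The part of the region in these members' differences was not tested. Around Xbp1, Hspa5, Calr, Sdf2l1, Herpud1, Pdia3, Ddit3, Atf3 and Dnajc3 the median lay between -0.09 and 0.11. Still, 7 were lower and 2 higher around Atf3, and 6 higher and 3 lower around Pdia3. Sdf2l1 and Herpud1 each had 3 higher and 1 lower, and Ddit3 had 4 of each. Against the member's direction, 5 were lower and 0 higher around Calr, 4 and 2 around Hspa5, and 4 and 1 around Xbp1. For Dnajc3, 6 were higher and 3 lower. Over all tested genes, 13.0% were higher and 17.9% lower.

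Of 116 tested genes from 5 further lists of the ER pathway, 12 (10.3%) were higher and 24 (20.7%) lower in Met1, with a median of -0.05. These shares lie near those of all tested genes (13.0%, 17.9% and -0.04), and the lists differed among themselves. These counts fell when a Met1 array was left out. They were 4 and 12 without Met1 1, 7 and 13 without Met1 2, and 6 and 15 without Met1 3. Calls over all tested probe sets fell as well, from 3626 to 2572, 2323 and 2306 in the same fits. In the translocon, signal peptide and glycosylation machinery 0 of 27 genes were higher and 11 (40.7%) lower, with 5 positive differences and a median of -0.21. By probe set 2 were higher, 1 of Sec63 (0.88, adjusted p = 0.000454), whose 3 other sets were lower, and 1 of Srp14 (0.47, adjusted p = 0.026). Serp1, a stress-induced translocon protein, was 2.40-fold lower (-1.27, adjusted p = 9.66e-05). Srp68 of the signal recognition particle (-0.76) and the oligosaccharyltransferase subunits Ostc (-0.59) and Krtcap2 (-0.57) were lower too. The members Sec61a1, Sec61b and Ssr1, which belong to the same machinery, had negative differences that did not pass.

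Of 21 further ERAD genes, 5 (23.8%) were higher and 1 (4.76%) lower. Nploc4, a cofactor of the VCP segregase, was 2.51-fold higher (1.33, adjusted p = 0.000163), the deglycosylating enzyme Ngly1 differed by 0.70, Vcp by 0.51 and the lectin Os9 by 0.35. Surrounding genes were counted for members such as P4hb only, so the part of the region in these values was not tested. Among the ERAD members, Herpud1 was higher, and Edem1, Syvn1 and Sel1l did not pass. Of 18 further folding genes, 2 (11.1%) were higher, Sdf2 (0.48) and the calcium-binding Nucb2 (0.42), and 3 (16.7%) lower. The latter included Ero1a, the oxidase that recharges PDI and is also induced by hypoxia, which was 2.70-fold lower (-1.43, adjusted p = 0.000859), and the prolyl isomerase Fkbp2 (-0.49). P4hb and its oxidase Ero1a thus had opposite signs.

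Of 21 further regulators, 1 (4.76%) was higher, Creb3 (0.30), and 2 (9.52%) lower. Ppp1r15b, the constitutive partner in eIF2α dephosphorylation, was 2.68-fold lower (-1.42, adjusted p = 6.56e-06), and the ER export chaperone Bcap31 had -0.29. A second Bcap31 probe set gave -0.07, and the 4 Creb3 probe sets ranged from -0.09 to 0.33. Ptpn1, an ER-bound phosphatase, gave 0.24 and did not pass. Of 29 further ATF4 and CHOP targets, 4 (13.8%) were higher and 7 (24.1%) lower, where 13.0% and 17.9% of all tested genes were. Cebpb, a partner of ATF4, was 1.94-fold higher (0.95, adjusted p = 0.000379), as was the tryptophan tRNA synthetase Wars (0.59). The serine synthesis enzyme Phgdh (-0.61) and the mitochondrial folate enzyme Mthfd2 (-0.52) were lower. Called genes of this list went in both directions, as over all tested genes, and the members Asns and Trib3 did not pass.

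**Figure D5:**
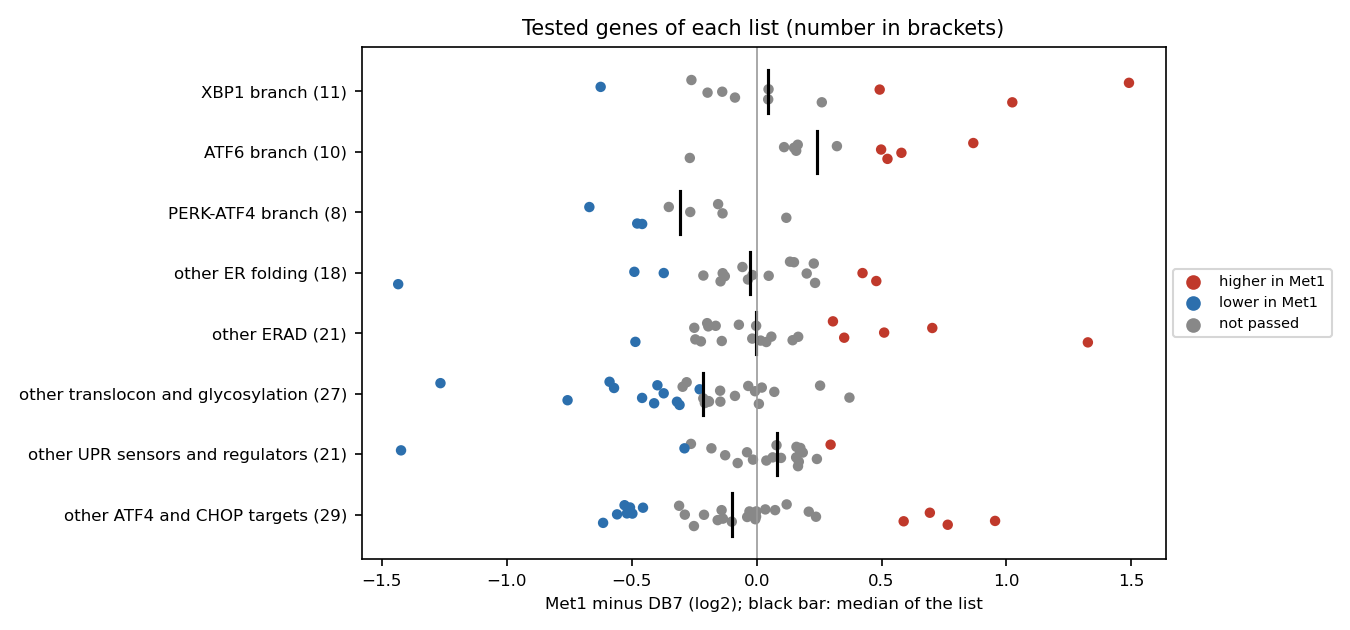
Difference of each tested gene, Met1 minus DB7 (log2), in the 3 arms and in 5 further pathway lists, with the number of tested genes in brackets. Dots are genes coloured by call and black bars are list medians; the ATF6 arm lies right of 0 except Sel1l, the PERK-ATF4 arm left of it except Trib3, and 22 of 27 translocon genes lie left.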

How the data were processed

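Total RNA of 7 frozen tumour samples was measured on 1-colour Affymetrix arrays, per the labels' protocols. The deposited table gives 1 value per probe set and array, taken as log2 from its range. RMA and MAS5 are both listed in the submitters' processing notes, with no role for either, and neither the log base nor the background correction is stated there. Values were used as deposited. Array medians ran from 6.53 to 6.61, and the number of arrays limits the precision. Exactly 1 gene symbol was annotated for 20380 probe sets, several for 691 and none for 1555; 64 controls were left out.

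The 11704 probe sets above their array's median on at least 3 of 7 arrays were fitted with limma 3.58.1 in R 4.3.3 (lmFit, eBayes with an intensity trend, line as the only term, two-sided). Benjamini-Hochberg adjustment ran over all of them, with a threshold of 0.05. The script was tested on simulated data. The brightest tested probe set stood for its gene. Differences are Met1 minus DB7 in log2, with moderated SE.

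Members, arms, lists, the naming rule and the alternatives were chosen with earlier results of these data known. Every member is named, and of each further pathway list up to 4 tested genes with the smallest p. Other genes (markers, Sec63 and Srp14) were chosen after their values were seen. Alternatives changed the filter, scaling, eBayes settings, array weights, probe set rule and arrays used. Protein sequences were not used here.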

Additional observations from a re-analysis of the deposited data

Results flagged for a closer look

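In 4 of 52 genes checked over the 4 DB7 arrays, 1 array stood apart from the other 3, where chance alone gives about 1 in 20. Ern1 read 7.18 in DB7 3 and 6.87 to 6.92 on the others. Atf3 read 7.39 in DB7 4 and 7.71 to 7.76 on the others. Bcap31 read 10.08 in DB7 1 and 10.18 to 10.19 on the others. Cebpb read 9.30 in DB7 3 and 9.64 to 9.71 on the others.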

How the results depend on the processing

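Of 602 alternative values over the 32 tested members, 571 kept direction and side of the threshold, 8 lost a call (5 genes), 17 gained one (7 genes) and 6 changed sign (4 genes, none called). Leaving out 1 array gave 7 to 10 members higher and 3 to 6 lower; 2 to 4 higher and 1 to 1 lower in the XBP1 arm; 3 to 5 and 0 to 0 in the ATF6 arm; 0 to 0 and 2 to 5 in the PERK-ATF4 arm; and 4 to 12 and 12 to 26 in the further lists. Without _s_at, _x_at and _a_at probe sets, which left 27 members tested, 5 were higher, 2 of them in the ATF6 arm. Array weights gave 7 members lower, 1 in the ATF6 and 5 in the PERK-ATF4 arm. Without DB7 1 and DB7 4, 9 were lower: 2 XBP1, 1 ATF6 and 6 PERK-ATF4 members. Calls over all tested probe sets, in either direction, also moved between fits. They numbered 2306 to 3786 without 1 array and 2302 of 7450 without suffixed sets. With array weights they were 4337 of 11704, and without DB7 1 and DB7 4 they were 3450 of 11324. The median probe set per gene left 0 XBP1 members lower. Sign changes came for Edem1 (-0.010 without Met1 1 and -0.0039 without DB7 1; leaving out 1 array gave -0.010 to 0.087), Syvn1 (-0.020 without DB7 3; -0.020 to 0.082), Asns (0.0065 without DB7 2; -0.33 to 0.0065) and Canx (-0.24 without suffixed sets and -0.020 without DB7 1 and DB7 4). The causes were not tested.

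Same-numbered arrays deviated with correlations of -0.17, -0.05 and 0.02, and differently numbered ones with -0.23 to 0.21. With so few arrays these values cannot settle whether the numbers pair samples. A fit with the replicate number as a block gave 8 members higher and 5 lower. In it, 2803 of 11704 probe sets were called in either direction.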
